A study of Mus musculus with 5 samples.

Results

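Replication-independent histone variants were examined as 8 genes chosen by name, H3f3a, H3f3b, H2afz, H2afv, H2afx, H2afy, H1f0 and H1fx, out of 11643 genes in the deposited expression table. All 8 were present. RNA-seq had been run on haematopoietic stem cells (HSCs) of C57BL/6 mice, sorted by the markers c-Kit+ Sca-1+ CD150+ CD48- after lineage-positive cells were gated out. The groups were 2 libraries labelled Tle1/3/4-deficient, in which floxed Tle1, Tle3 and Tle4 were to be removed by Vav-Cre, a recombinase active in all blood cells, and 3 libraries labelled control. The library names of the controls begin with VavC, and the labels do not say whether this means that the control mice carried the Cre. They give neither the age of the mice nor whether the control mice carried the floxed alleles. TLE proteins are co-repressors without DNA binding of their own, and the comparison asks what their loss changes in HSC gene expression. Values are FPKM, fragments scaled to transcript length and to the mapped total of the library, so levels of different genes can be compared per length.

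Most histone mRNA is made in S phase from clustered genes whose transcripts end in a stem-loop instead of a poly(A) tail. Replication-independent variants come from separate genes with introns or poly(A) tails, are made outside S phase as well, and replace the canonical histones in existing chromatin. Histone H3.3 is laid down at active genes and at repeats by the HIRA and DAXX-ATRX chaperones, H2A.Z is exchanged into nucleosomes next to start sites by the SRCAP and EP400 complexes, H2A.X is phosphorylated around DNA breaks, macroH2A marks silent chromatin, and H1.0 is the linker histone that builds up in resting and differentiated cells.

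The targeted genes did not follow the labels in every case. Tle3 was at 32.3 and 31.6 FPKM in the libraries labelled deficient, against 2.48, 4.97 and 5.61 FPKM in the controls. Tle4 was at 0.353 and 0.203 FPKM in the libraries labelled deficient, against 5.67, 0.0129 and 5.29 FPKM in the controls, and Tle1 at 2.84 and 4.37 against 1.83, 0.811 and 3.33 FPKM. None of these 3 passed the test described below (limma, adjusted p = 0.424, 0.726 and 0.83). Every direction given here therefore rests on labels that the per-gene Tle3 values went against. FPKM per gene do not show whether the floxed part of a gene was in its transcripts. Whether the labels or this measure explain the Tle3 values was not tested. All 12 HSC markers were above 0 in every library, but 11 had a negative fold change and 1 a positive one. They summed to 666 and 478 FPKM in the libraries labelled deficient, against 874 to 1024 FPKM in the controls. Below every control lay 6 of the 12 and above every control 1, beside 15.9% and 10.2% of all genes tested. RNA of genes listed as markers of other cells was also present. Each of the 11 granulocyte markers had a positive fold change, and together they summed to 11156 and 66530.0 FPKM in deficient-labelled replicates 1 and 2, against 563 to 3040 FPKM in the controls. The 7 megakaryocyte markers, again all positive, summed to 8673 and 3940 FPKM against 562 to 1268 FPKM, and the 7 erythroid ones, of which Ermap was at 0 in control replicates 1 and 2, to 165 and 574 against 35.8 to 69.5 FPKM. Of 5 T and NK cell markers only 2 were in the table, Nkg7 and Klrb1c, and none of the Cd3 genes. The sum, nearly all Nkg7, was 349 and 195 against 34.0 to 105 FPKM, with Klrb1c at 3.16 and 2.21 FPKM in the libraries labelled deficient. Monocyte markers were low, at 11.0 and 73.6 against 0.159 to 14.7 FPKM. Of 3 mast cell and basophil markers only 1 was in the table, Cpa3, also low at 0.0937 and 5.51 against 0 to 2.03 FPKM. In a bulk sample, marker RNA from other cells cannot be told apart from marker RNA made by the HSCs themselves. Nor can fewer cells of a type be told apart from less RNA per cell. The part of either in the results below was not tested.

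H3f3a and H3f3b encode the same protein, histone H3.3, from separate loci with different promoters. Their mRNAs were differently divided among the libraries. H3f3a was at 1753 and 914 FPKM in the libraries labelled deficient, against 585, 853 and 690.2 FPKM in the controls. Both deficient-labelled libraries were above every control, but replicate 2 was only just above control replicate 2, while replicate 1 was far above all others. The log2 fold change of H3f3a was 0.85 (SE 0.35, 95% interval 0.045 to 1.66), with an unadjusted p of 0.041 and an adjusted p of 0.564 over 10570 genes (limma on log2(FPKM + 1) of genes averaging at least 1 FPKM, two-sided, Benjamini-Hochberg, threshold 0.05). Leaving out deficient-labelled replicate 1 gave 0.38, and leaving out replicate 2 gave 1.32, so 1 library sets much of its size. H3f3b was at 1138 and 1757 FPKM in the libraries labelled deficient, against 1406, 1124 and 1520.0 FPKM in the controls. The groups overlapped, with deficient-labelled replicate 2 the highest and control replicate 2 the lowest of the 5 libraries. Deficient-labelled replicate 2 was thus the higher of its group for H3f3b and the lower for H3f3a. Of the marker values given above, it had the higher granulocyte, erythroid, monocyte and mast cell ones. Its megakaryocyte, T and NK cell and HSC ones were the lower, and the part of any of these was not tested. The log2 fold change of H3f3b was 0.078 (SE 0.30, interval -0.63 to 0.78, adjusted p = 0.956 by limma), and it was -0.23 without deficient-labelled replicate 2 and -0.048 without control replicate 2.

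**Figure D1:**
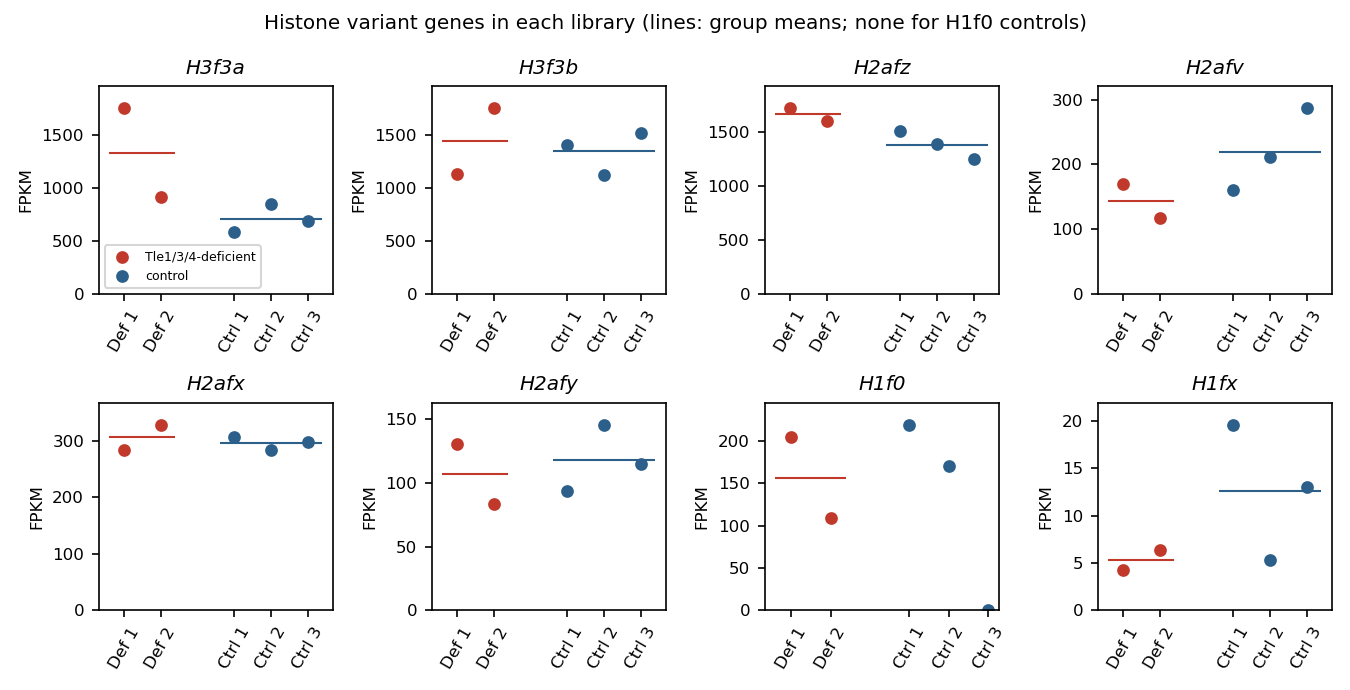
FPKM (vertical axes, each from 0) of the 8 genes in the 2 libraries labelled Tle1/3/4-deficient (Def, red) and the 3 control libraries (Ctrl, blue), with lines at the group means (none for the H1f0 controls). The groups are apart only for H3f3a and H2afz, and H1f0 is listed at 0 in control replicate 3.

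The promoters of the H3.3 pair are shown because the pair had the same product and unlike mRNA values, largely through deficient-labelled replicate 1. Any link between promoter and mRNA values was not tested. The 250 bases upstream of each annotated start come from RefSeq (GRCm38.p6), a later build than the mm9 of the expression table, in which windows matched 7 of the 8 genes. Whether these starts are the ones used in these cells was not tested. Capitals mark 5 motifs, searched on either strand. The first is CCAAT, which NF-Y binds in many promoters. The TATA box was searched as TATAAA, upstream of the start. The octamer ATGCAAAT is the sequence that OCT factors bind. The core of the cAMP response element, bound by CREB and ATF factors, was searched as TGACG. The GC box, bound by SP factors, was searched as GGGCGG.
H3f3a promoter, chr1:180813606-180813855, minus strand: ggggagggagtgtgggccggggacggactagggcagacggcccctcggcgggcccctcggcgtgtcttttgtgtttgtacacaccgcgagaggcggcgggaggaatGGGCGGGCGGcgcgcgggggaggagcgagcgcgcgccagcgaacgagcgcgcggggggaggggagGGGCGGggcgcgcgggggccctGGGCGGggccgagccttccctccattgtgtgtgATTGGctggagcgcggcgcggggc
H3f3b promoter, chr11:116024505-116024754, minus strand: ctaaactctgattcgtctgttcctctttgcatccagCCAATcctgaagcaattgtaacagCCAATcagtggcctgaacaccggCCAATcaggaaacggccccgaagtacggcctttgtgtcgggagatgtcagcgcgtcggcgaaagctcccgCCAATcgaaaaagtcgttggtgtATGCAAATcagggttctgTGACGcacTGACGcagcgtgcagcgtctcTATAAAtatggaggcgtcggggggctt
The H3f3b window held 4 CCAAT motifs, 1 TATAAA, 1 octamer, 2 TGACG and no GC box. The H3f3a window held 1 CCAAT and 4 GC boxes, of which the first 2 overlap each other, and none of the other 3 motifs. Its GC content was 77.2%, against 54% in H3f3b and a median of 52.4% over 32536 windows of that length. Among those windows 33.8% held CCAAT at least once and 0.842% at least 4 times, 12.3% held TATAAA, 1.62% the octamer, 17.9% TGACG, and 33% a GC box (4.12% at least 4). These matches describe letters and do not show that a factor binds.

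Added together, the 2 genes gave 2891 and 2672 FPKM of H3.3 mRNA in the libraries labelled deficient, against 1991, 1977 and 2210.2 FPKM in the controls. The sums did not overlap between the groups, and no test was made on a sum over chosen genes. H3f3a made up 60.6% of that sum in deficient-labelled replicate 1 and 34.2% in replicate 2, against 29.4%, 43.1% and 31.2% in the controls. Deficient-labelled replicate 2 thus lay among the controls in this share, and replicate 1 was the only library with more H3f3a than H3f3b. The log2 ratio of H3f3b to H3f3a, which cancels library scaling, averaged 0.16 ± 1.11 in the libraries labelled deficient and 0.93 ± 0.47 in the controls (SD, n = 2 and 3). The difference of -0.77 gave p = 0.4 in an exact two-sided permutation test, in which 10 splits allow no p under 0.2 (adjusted over the 2 ratios tested, 0.4), and the difference was 0.0090 without deficient-labelled replicate 1.

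**Figure D2:**
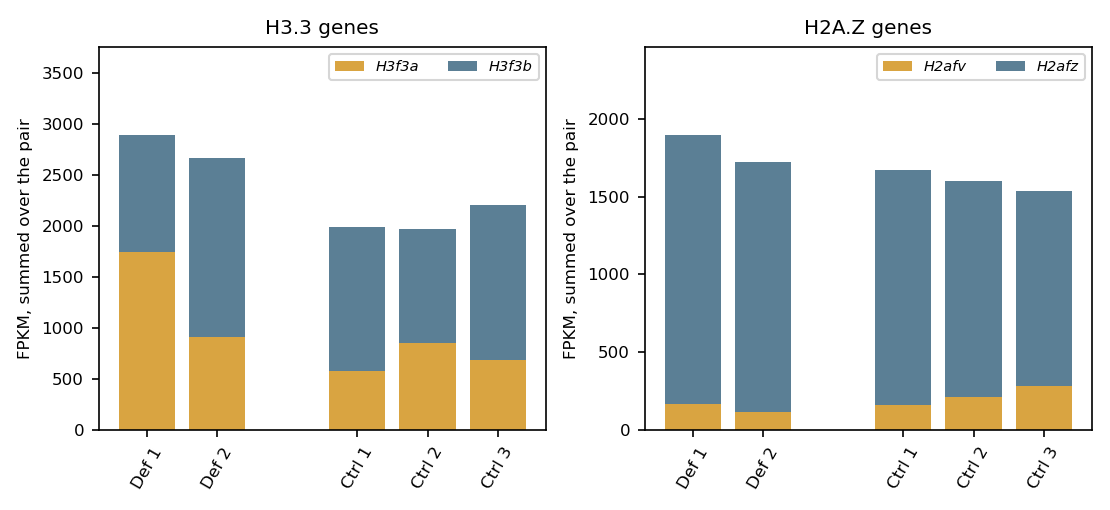
FPKM stacked over the 2 genes of each pair (vertical axes) in deficient-labelled (Def) and control (Ctrl) libraries, H3f3a and H3f3b on the left, H2afv and H2afz on the right. H3f3a exceeds H3f3b only in deficient-labelled replicate 1, and H2afv is a small part of every H2A.Z bar.

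How reads were divided between H3f3a and its copies bears on these values. In the GENCODE M21 transcripts, 92.8% of the 50-base words in the H3f3a coding sequence were also found in transcripts of 38 other genes, 37 of them pseudogenes, against 46% in H3f3b with 2 others, both pseudogenes. The 2 coding sequences have 408 bases each before the stop codon, of which 76.7% are identical, with no shared run longer than 23 bases. A read of 50 bases inside the coding sequence therefore cannot match both genes exactly, but one from H3f3a can match its pseudogenes. On the opposite strand H3f3a also overlaps the antisense gene H3f3aos and the long non-coding RNA gene Gm17275, which is among the 38. Neither the read length nor any use of strand is given in the sources used here. The part of copies and antisense transcripts in the H3f3a values was not tested.

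H2afz and H2afv encode the closely similar H2A.Z proteins. H2afz had the highest mean of the 8 genes and was at 1721 and 1607 FPKM in the libraries labelled deficient, against 1506, 1389 and 1251 FPKM in the controls. Both deficient-labelled values were above every control, by a margin smaller than the range of the controls. The log2 fold change was 0.27 (SE 0.25, 95% interval -0.32 to 0.86, adjusted p = 0.784 by limma), and 0.20 to 0.34 when each library was left out. H2afv was at 170.5 and 117 FPKM in the libraries labelled deficient, against 161, 212 and 287 FPKM in the controls. Deficient-labelled replicate 1 lay inside the range of the controls, which itself spanned from 161 to 287 FPKM. Its log2 fold change was -0.59 (SE 0.33, interval -1.37 to 0.18, adjusted p = 0.663 by limma), and it ranged from -0.86 without deficient-labelled replicate 1 to -0.33 without replicate 2.

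The promoters of the H2A.Z pair are shown because the 2 genes encode closely similar proteins and had unlike mRNA patterns, with the same motifs in capitals. Here too, any link between promoter and mRNA values was not tested.
H2afz promoter, chr3:137864237-137864486, plus strand: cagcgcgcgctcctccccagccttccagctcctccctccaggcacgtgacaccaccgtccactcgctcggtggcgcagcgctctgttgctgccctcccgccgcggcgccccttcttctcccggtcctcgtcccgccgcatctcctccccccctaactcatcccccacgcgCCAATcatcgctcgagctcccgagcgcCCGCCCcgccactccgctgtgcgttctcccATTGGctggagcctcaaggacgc
H2afv promoter, chr11:6444444-6444693, minus strand: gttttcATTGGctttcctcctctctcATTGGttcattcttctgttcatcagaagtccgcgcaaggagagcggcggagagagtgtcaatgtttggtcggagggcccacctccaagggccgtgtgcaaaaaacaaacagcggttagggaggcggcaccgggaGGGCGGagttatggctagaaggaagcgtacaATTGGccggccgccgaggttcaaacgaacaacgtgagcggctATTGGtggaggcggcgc
The windows held 2 and 4 CCAAT motifs in H2afz and H2afv, 1 GC box each, and none of the other 3 motifs, and their GC contents were 71.2% and 57.2%. Of all windows, 10.1% held CCAAT at least 2 times.

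H2afv gave 9.01% and 6.80% of the summed H2A.Z mRNA in the libraries labelled deficient, against 9.64%, 13.2% and 18.7% in the controls, so the groups did not overlap. The log2 ratio of H2afz to H2afv averaged 3.56 ± 0.31 in the libraries labelled deficient and 2.69 ± 0.55 in the controls (SD, n = 2 and 3), a difference of 0.87 with p = 0.2 in the exact permutation test, the smallest that 10 splits can give (adjusted over 2 ratios, 0.4). The difference kept its sign when each library was left out (0.59 to 1.14). The sum of both genes was 1892 and 1724 FPKM in the libraries labelled deficient, against 1667, 1601 and 1537 FPKM in the controls. The 2 coding sequences have 384 bases each before the stop codon, 79.2% identical, and no run of more than 14 bases in common. Every 50-base word of the H2afz coding sequence was also found in 1 or more of 6 other genes, 4 of them pseudogenes, and no such word of H2afv was found elsewhere, and the part of read assignment in the ratio was not tested.

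H2afx encodes H2A.X, the variant phosphorylated at its tail beside DNA breaks. It was the steadiest of the 8 genes, at 283 and 328 FPKM in the libraries labelled deficient, against 306, 283 and 298 FPKM in the controls. The groups overlapped, with deficient-labelled replicate 2 the highest and control replicate 2 the lowest, just under deficient-labelled replicate 1. The log2 fold change was 0.045 (SE 0.24, interval -0.51 to 0.60, adjusted p = 0.969 by limma), with the sign turning to -0.061 without deficient-labelled replicate 2. The highest library was 1.16 times the lowest. Of the 1005 genes that averaged at least 100 FPKM with no library at 0, only 11 had a lower such ratio and the median was 1.85. The same ratio was 1.38 for H2afz, 1.56 for H3f3b, 1.74 for H2afy, 2.45 for H2afv and 3.00 for H3f3a, below which lay 122, 287, 438, 774 and 871 of the 1005 genes.

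H2afy encodes macroH2A, an H2A with a large extra domain that is enriched on silent chromatin such as the inactive X chromosome. It was at 130.3 and 83.5 FPKM in the libraries labelled deficient, against 94.0, 146 and 115 FPKM in the controls, and the groups overlapped throughout. The log2 fold change was -0.15 (SE 0.33, interval -0.92 to 0.61, adjusted p = 0.921 by limma). It was 0.16 without deficient-labelled replicate 2 and 0.0067 without control replicate 2, so no direction can be given.

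Of the linker histones, H1f0, which encodes H1.0, was listed at 205 and 109 FPKM in the libraries labelled deficient, against 219, 171 and 0 FPKM in the controls. Of the 1037 genes averaging at least 100 FPKM, 5 and 5 were listed at 0 in the libraries labelled deficient, against 7, 12 and 14 in the controls. Whether the 0 of H1f0 is a failed estimate was not tested. H1f0 overlaps an antisense gene in GENCODE M21. The fitted log2 fold change of 2.16 (SE 2.10, interval -2.73 to 7.06, adjusted p = 0.797 by limma) rests on that 0, and it was -0.37 (adjusted p = 0.845) without control replicate 3. H1fx encodes the H1.10 linker histone and was the lowest of the 8 genes, at 4.31 and 6.40 FPKM in the libraries labelled deficient, against 19.6, 5.27 and 13.0 FPKM in the controls. Control replicate 2 lay between the libraries labelled deficient, and the other controls were above both. The log2 fold change was -0.96 (SE 0.70, interval -2.60 to 0.68, adjusted p = 0.726 by limma), and it ranged from -1.44 without control replicate 2 to -0.58 without control replicate 1.

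Over the 8 genes, all of which passed the filter on low values, 0 passed the threshold (limma), beside 0.0189% of all genes tested, which is 2 genes, 1 in each direction (0.00946% higher and 0.00946% lower). At an unadjusted p under 0.05 there was 1 of 8, H3f3a, which was higher, beside 8.45% of all genes (3.26% higher and 5.18% lower). The deficient-labelled libraries lay above every control for 2 of 8 genes, H3f3a and H2afz, beside 10.2% of genes, and below every control for 0 of 8, beside 15.9%. Fold changes were positive for 5 of 8 genes, beside 44.3% of genes, with a median of 0.062 against -0.10 over all genes tested. Median-of-ratios scaling moved that overall median to 0.012, and no member changed sign under that scaling or under quantile normalization. The 95% intervals allow changes of more than 0.5 on the log2 scale in at least 1 direction for each of the 8 genes, so the missed threshold does not show equal levels.

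**Figure D3:**
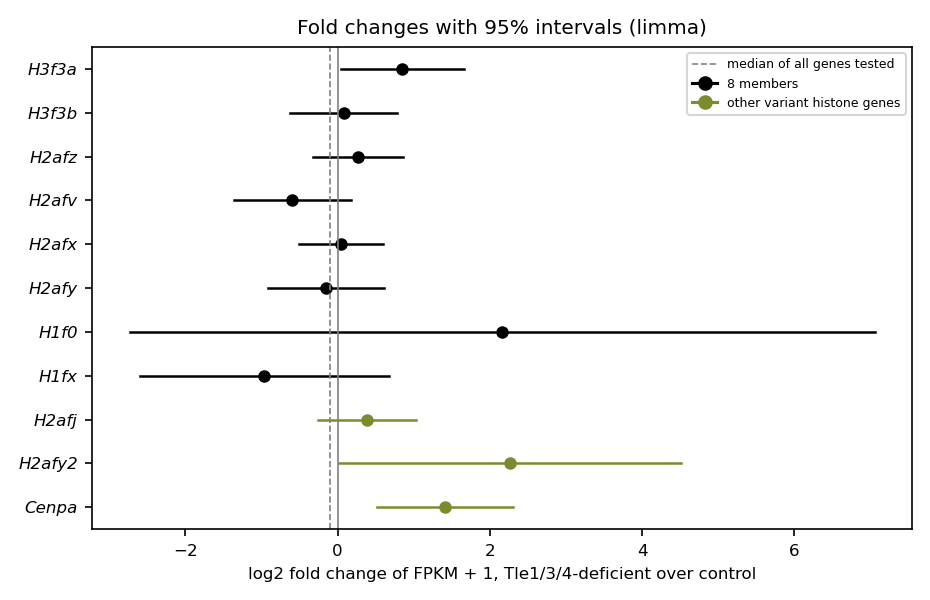
Log2 fold change of FPKM + 1, Tle1/3/4-deficient over control (horizontal axis), with 95% limma intervals for the 8 genes (black) and 3 other variant histone genes (green). The dashed line marks the median of all genes tested at -0.10, and the wide interval of H1f0 goes with its 0 in control replicate 3.

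The variants were set beside the replication-dependent genes of the same families, leaving out Cenpa, H2afj and H2afy2, which are described below. The 2 H3.3 genes gave 97.0% and 98.3% of the FPKM summed over them and 10 replication-dependent H3 genes in the libraries labelled deficient, against 97.7%, 95.9% and 96.7% in the controls. H2afz, H2afv, H2afx and H2afy gave 91.5% and 91.7% of the FPKM summed over them and 12 replication-dependent H2A genes in the libraries labelled deficient, against 91.3%, 88.9% and 87.6% in the controls. For both families the shares lay within a few percentage points in all 5 libraries. H1f0 and H1fx gave 74.1% and 45.7% of the FPKM summed over them and 5 replication-dependent H1 genes in the libraries labelled deficient, against 71.8%, 60.7% and 8.52% in the controls, the last being the library with H1f0 at 0. The highest replication-dependent H3 gene was at 31.2 and 15.1 FPKM in the libraries labelled deficient, against 17.1, 37.1 and 28.7 FPKM in the controls. A library made from poly(A) RNA would miss most replication-dependent transcripts, and the labels do not say how RNA was selected, so these shares describe the libraries and not the cells. Many replication-dependent genes are also near-identical copies, so their single values are uncertain.

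**Figure D4:**
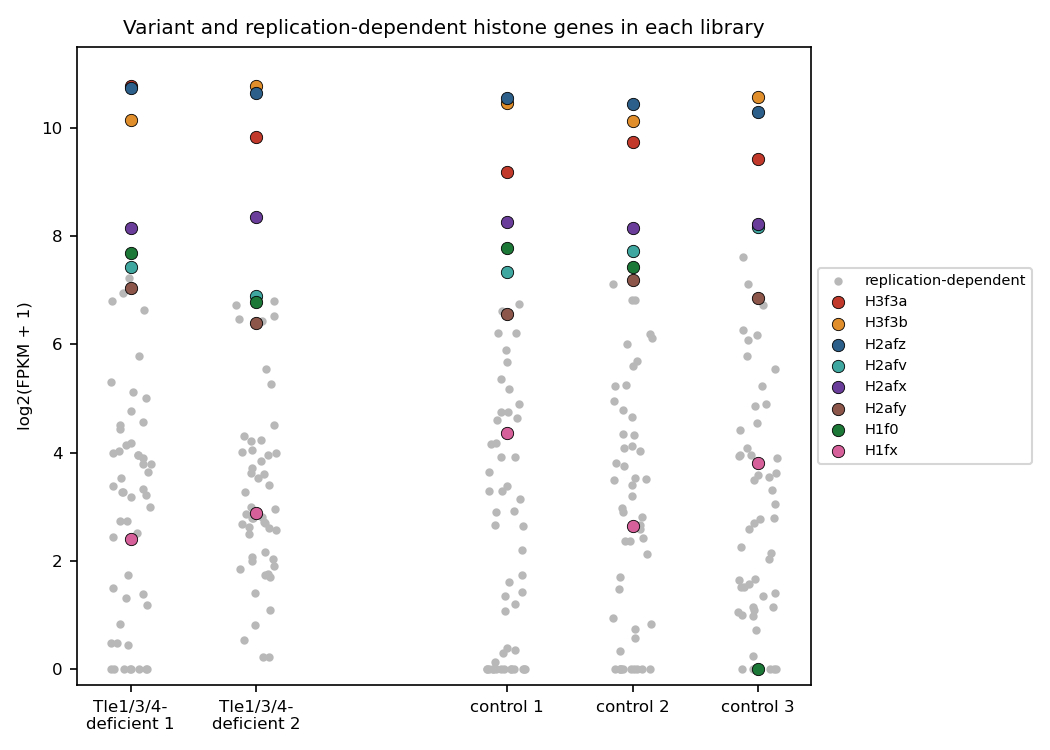
log2(FPKM + 1) (vertical axis) of the 8 variant genes (coloured) and 51 replication-dependent histone genes (grey) in each of the 5 libraries. H2afz, H3f3a and H3f3b are the 3 highest histone genes in every library, and H1fx lies among the replication-dependent genes.

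The 51 replication-dependent histone genes summed to 974 and 884 FPKM in the libraries labelled deficient, against 808, 1030.4 and 1075 FPKM in the controls, and these ranges overlapped. Of the 48 tested, 0 passed the threshold (limma), and the median log2 fold change was 0.15. At an unadjusted p under 0.05 there were 2 higher and 2 lower, beside 3.26% and 5.18% of all genes tested. Above every control lay 7 and below 5, beside 10.2% and 15.9% of all genes. The 3 most abundant were Hist1h4d, at 123 and 105 against 97.7, 112 and 195 FPKM, Hist1h4i, at 149 and 110.4 against 106, 112 and 76.1 FPKM, and Hist1h2ae, at 110.4 and 45.5 against 72.9, 137 and 138 FPKM, none with separate groups. Hist1h3i and Hist1h2bp were above every control, at 15.2 and 6.77 against 0, 0 and 2.11 FPKM and at 8.34 and 4.95 against 0.272, 0 and 2.16 FPKM, with adjusted p = 0.439 and 0.547 (limma).

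The other variant histone genes in the table were Cenpa, H2afj and H2afy2. In each the libraries labelled deficient lay above every control, beside 10.2% of all genes tested. Cenpa, the centromeric H3 variant, was at 275 and 203 FPKM in the libraries labelled deficient, against 68.1, 142 and 70.6 FPKM in the controls (log2 fold change 1.41, SE 0.39). Its adjusted p was 0.439 (limma). H2afj, an H2A variant close to canonical H2A, was at 163 and 116 against 98.0, 109.5 and 108 FPKM, and the second macroH2A gene H2afy2 at 18.1 and 7.42 against 0, 5.32 and 1.89 FPKM (adjusted p = 0.723 and 0.587). None of the 3 passed, and their median log2 fold change was 1.41. At an unadjusted p under 0.05 (limma) there were 2, both higher, beside 3.26% of all genes tested. Cenpa mRNA peaks in G2, and of the 19 G2/M and mitosis genes tested 15 were positive and 4 negative, and their median log2 fold change was 0.70. They summed to 1610 and 1694 FPKM in the libraries labelled deficient, against 954, 1211 and 1237 FPKM in the controls. None passed (limma), with 5 higher at an unadjusted p under 0.05, beside 3.26% of all genes tested. Granulocyte and megakaryocyte marker sums were higher in the same libraries, and their part in the G2/M values was not tested. The most abundant, Cks2, a cyclin-dependent kinase subunit, was at 350.0 and 340.1 against 192, 214 and 274 FPKM, Birc5 (survivin) at 208 and 199.8 against 127, 147 and 139 FPKM and the APC activator Cdc20 at 105 and 183 against 146, 122 and 136 FPKM. Of the 19 genes 10 lay above every control and 2 below, beside 10.2% and 15.9% of all genes tested. Those with the largest changes among them were Hmmr, above, and Bub1, below, at 24.97 and 28.8 against 7.64, 12.4 and 15.4 FPKM and at 6.46 and 11.6 against 25.6, 19.8 and 11.7 FPKM. The 25 S phase and replication genes, with which the replication-dependent histones are made, had a median of -0.16 with 7 positive and 18 negative. Of these genes 0 passed the threshold (limma). At an unadjusted p under 0.05 there was 1 in each direction, beside 3.26% higher and 5.18% lower of all genes tested. Their most abundant members were Mcm6, at 226 and 210.3 against 244, 282 and 301 FPKM, Rfc2, at 223 and 177 against 330.2, 203 and 208 FPKM, and Pcna, at 202 and 168 against 171, 249 and 256 FPKM. Of the 25 genes 2 lay above every control and 2 below, Mcm6 among the latter, beside 10.2% and 15.9% of all genes tested. Ccne1 (cyclin E), at 19.5 and 33.9 against 11.53, 13.4 and 13.0 FPKM, and the ribonucleotide reductase subunit Rrm2, at 67.9 and 100.4 against 42.1, 33.8 and 51.4 FPKM, were the 2 above.

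**Figure D5:**
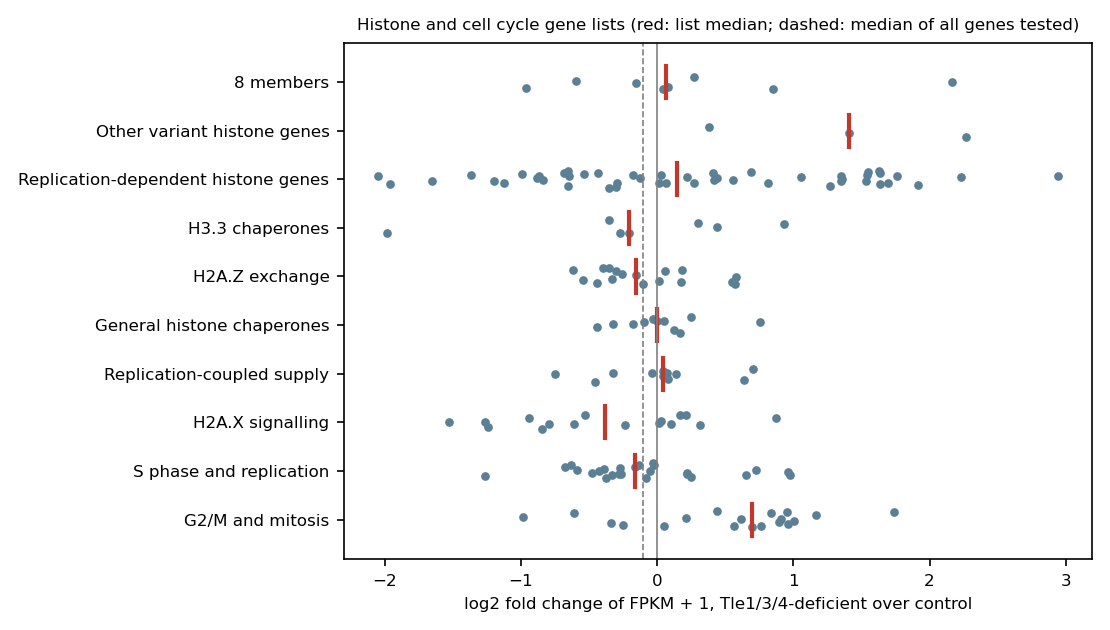
Log2 fold change of FPKM + 1, Tle1/3/4-deficient over control (horizontal axis), of every tested gene in 10 lists (points), with the list median in red and the median of all genes tested dashed. The G2/M genes have a median of 0.70 and the 3 other variant genes one of 1.41, and the 8 variants have one of 0.062.

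The proteins that place the variants in chromatin gave no call. Of the H3.3 chaperones, 7 of 9 were tested, with 0 past the threshold (limma) and a median of -0.21 (3 positive, 4 negative). At an unadjusted p under 0.05 there was 1 lower, beside 5.18% of all genes tested. Atrx, the remodeller that works with DAXX, was at 190.0 and 66.3 FPKM in the libraries labelled deficient, against 158, 149.6 and 125 FPKM in the controls, and the replication-linked chaperone Asf1b at 70.7 and 85.6 against 47.4, 104 and 50.3 FPKM. Nasp, which holds free H3 and H4, was at 32.5 and 48.7 against 27.9, 65.7 and 61.1 FPKM. Ubn1, the HIRA partner that recognises H3.3, lay below every control, at 8.11 and 4.93 against 19.7, 49.5 and 22.6 FPKM (log2 fold change -1.99, SE 0.57, adjusted p = 0.439 by limma). It was the only 1 of the 7 below every control and 0 lay above, beside 15.9% and 10.2% of all genes tested. Of 17 H2A.Z exchange genes tested, 0 passed (limma), and the median was -0.16 (7 positive, 10 negative). An unadjusted p under 0.05 (limma) was found for 0, beside 8.45% of all genes tested. Above every control lay 1 and below 1, beside 10.2% and 15.9% of all genes. The ATPases Ruvbl1 and Ruvbl2 were at 188 and 117 against 194, 189.5 and 152 FPKM and at 137 and 101 against 125, 148 and 123 FPKM. Anp32e, which removes H2A.Z from nucleosomes, was at 272 and 87.5 against 91.4, 176 and 68.8 FPKM. Vps72 (YL1), the H2A.Z-binding subunit, was below every control at 64.0 and 60.6 against 74.8, 89.8 and 83.1 FPKM, and Mbtd1 just above, at 8.40 and 5.25 against 3.10, 5.24 and 4.28 FPKM (adjusted p = 0.717 and 0.832).

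General histone chaperones had a median of 0.0016 over 11 genes tested (6 positive, 5 negative, 0 past the threshold by limma). An unadjusted p under 0.05 (limma) was reached by 0, beside 8.45% of all genes tested. Above every control lay 1 and below 0, beside 10.2% and 15.9% of all genes. Npm1 was at 766 and 543 FPKM in the libraries labelled deficient, against 623, 838 and 745 FPKM in the controls, Anp32b at 352 and 319 against 372, 339 and 368 FPKM and Set at 208 and 184 against 192, 211 and 184 FPKM. Anp32a was just above every control, at 10.2 and 10.3 against 9.57, 9.16 and 8.38 FPKM. The genes of replication-coupled histone supply had a median of 0.042 over 11 tested (7 positive, 4 negative), again with 0 past the threshold (limma). Their count at an unadjusted p under 0.05 (limma) was 0, beside 8.45% of all genes tested. Groups were separate for 0 of them, beside 10.2% of all genes above every control and 15.9% below. Slbp, which binds the stem-loop of replication-dependent histone mRNA, was at 187 and 121 against 161, 146 and 126 FPKM, and the CAF-1 subunits Chaf1b and Rbbp4 at 104 and 48.5 against 74.5, 71.5 and 72.4 FPKM and at 42.3 and 62.8 against 83.0, 40.8 and 80.5 FPKM. For H2A.X phosphorylation and damage signalling, 16 genes were tested, with 0 past the threshold (limma) and a median of -0.38 (7 positive, 9 negative). At an unadjusted p under 0.05 there was 1 lower, beside 5.18% of all genes tested. Ppp4c, a phosphatase of H2A.X, was at 188 and 171 against 164, 196 and 171 FPKM, and Rad50 and Nbn of the break-sensing complex at 114 and 16.9 against 33.9, 28.1 and 89.3 FPKM and at 30.7 and 19.5 against 29.8, 34.3 and 23.8 FPKM. Of the 16 genes 3 lay above every control and 4 below, beside 10.2% and 15.9% of all genes tested. Atm, the kinase that phosphorylates H2A.X, and Eya1, a phosphatase of the family that acts on it, lay below every control, at 5.09 and 7.20 against 14.9, 20.7 and 13.1 FPKM and at 6.34 and 1.74 against 9.31, 16.5 and 11.1 FPKM (adjusted p = 0.587 and 0.606).

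Likeness of pattern was measured as the root mean square difference of log2(FPKM + 1) values centred on each gene's own mean over the 5 libraries, against 6610 genes averaging at least 10 FPKM. The closest to H2afz were Pfn1 (0.028) and Acsl5 (0.029), to H3f3a Cmpk2 (0.080) and Acadl (0.096), and to H3f3b Oard1 (0.060) and Capg (0.078). The closest to H2afx were Trpc4ap and Lig1 (both 0.043), to H2afy Chchd6 (0.053) and Ndufb11 (0.055), to H2afv Ptms (0.035) and Akr1e1 (0.061), and to H1fx F11r (0.044) and Agps (0.11). H1f0 was closest to Wdr83os (0.10) and D8Ertd738e (0.41), both likewise listed at 0 in control replicate 3. None of these closest genes was another of the 8 variants. With only 2 genes kept of 6610 for each, this cannot show that the variants differ in pattern. H1fx, averaging 9.73 FPKM, was not among the genes that the others were compared with.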

How the data were processed

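RNA-seq of 5 libraries was deposited as a table of FPKM per gene symbol. Per the submitters' processing notes the build was mm9 and the tools TopHat and edgeR, with no version or role. The sources used here give no annotation, FPKM tool, read length or strandedness. Since each library is scaled to its own total, a few abundant genes lower all others. FPKM hold no read totals, so no counting interval is given. Genes under 0.15 FPKM in deficient replicate 1 and a control were often at 1 fixed ratio between the libraries (within 1%), at 0.897, 0.993 and 1.31 for controls 1, 2 and 3 in 36 of 84, 31 of 90 and 8 of 31 genes, as whole reads would give, and at 1.15 in 14 of 75 for deficient replicate 2. Columns summed to 599137 to 683822 FPKM and held 656 to 1438 genes at 0. No label says whether the replicates were separate animals, and p-values then reflect only library-to-library spread, possibly technical. For genes averaging at least 1 FPKM, log2(FPKM + 1) was fitted by group alone in limma 3.58.1 (trended eBayes, R 4.3.3), and the fit was checked on simulated data. The added 1 understates the change of low genes. Ratios used scipy 1.17.1, figures matplotlib 3.10.9. Symbols were looked up in GENCODE M21 and RefSeq, both of a later build. Named genes are the 8 members and the targeted genes. Marker lists are given as sums, and the B cell list is not reported here. Of each other list they are those past the threshold, otherwise the 3 most abundant, plus up to 2 with the largest change among those with separate groups and a higher mean of at least 5 FPKM. The members and lists were chosen with earlier results of these data known. Alternatives covered the pseudocount, filter, scaling, variance model, replicate block and leaving out each library.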

Additional observations from a re-analysis of the deposited data

How the results depend on the processing

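None of the 8 variants, and 0 of the listed histone and cell cycle genes, passed the threshold under any of 14 alternatives (limma). The number of genes past it over the whole table, 2 as reported, was 0 with a pseudocount of 0.1 or no filter, 4 with a pseudocount of 5 or median-of-ratios scaling, 1 with eBayes without trend, 5 with robust eBayes and 0 to 5 when each library was left out. The 8 fold changes kept their sign in 105 of 112 values and turned in 7. Leaving out each library gave -0.061 to 0.15 for H2afx, -0.47 to 0.16 for H2afy, -0.23 to 0.39 for H3f3b, -0.37 to 3.52 for H1f0 and 0.38 to 1.32 for H3f3a, and the difference in the H3f3b to H3f3a ratio ranged from -1.56 to 0.0090. Leaving out a deficient-labelled library keeps 1, assumed to vary like the others. Deviations from the group mean had correlations of 0.035 and 0.0069 between same-numbered libraries. With 2 deficient-labelled libraries these deviations mirror each other, so the values cannot show whether the replicate numbers pair libraries. The replicate block gave 22 genes past the threshold, and the cause was not tested. It turned H1f0 to -0.37, the value without control replicate 3, since that library has no partner and drops out of the blocked difference.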
